A study of Homo sapiens with 3 samples.

Results

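Immediate early genes are the first genes that cells transcribe when serum, a growth factor or stress reaches them, and they need no new protein for it. Serum response factor with its ELK partners and the CREB family switch them on, and their mRNA is short-lived, so that their level follows recent signalling. Their products are mostly transcription factors. FOS and JUN proteins pair to form AP-1, in which a FOS protein needs a JUN partner, and the EGR proteins are zinc finger factors held in check by the corepressors NAB1 and NAB2. In growing cells without a fresh stimulus, FOS and EGR1 are typically low. Here 10 of these genes, FOS, FOSB, JUN, JUNB, EGR1, EGR2, EGR3, IER2, IER3 and ATF3, were taken by name from the 23284 genes listed in each library, and all 10 were found.

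The libraries came from 293T cells, an established line of human embryonic kidney origin, that transiently expressed dCas9-VP64. This is a cleavage-dead Cas9 joined to a transcriptional activator. All 3 groups carried dCas9-VP64, and with transient expression the RNA is pooled over cells that did and did not take up the plasmids. The mock group had a mock sgRNA, and the other groups had sgL1ASP #1 or sgL1ASP #3, guides against the antisense promoter (ASP) of the LINE-1 (L1) retrotransposon, which lies at many places in the genome. The study asked which genes respond to L1 ASP activation and what it does to growth. There was 1 library per group, so that no difference has a replicate check, no p-value is given, and the condition cannot be told apart from the library. How long after transfection the RNA was taken is not given in the sources used here.

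The authors deposited FPKM per gene, a read level corrected for exon length and library size. Mock had 16640 genes with FPKM above 0, sgL1ASP #1 had 16693, and sgL1ASP #3 had 16440. Since a gene covered by few reads has FPKM in whole steps, the number of reads behind a value can be read back, and the libraries were estimated to hold 10500000 reads in mock, 10300000 with sgL1ASP #1 and 8700000 with sgL1ASP #3. Of 555 genes with 1 annotated transcript and at most 200 reads in mock, 88.1% gave whole reads in all 3 libraries within 0.01 reads. All intervals are 95% exact intervals of read numbers. Whole reads were searched only up to 200 expected reads in mock. JUN, IER2, ATF3, ATF7, CREM, DNAJB1, DDIT3, the upstream kinases and many other listed genes lie above that. For FOSB and some other listed genes the search found none. In all these cases reads were estimated from FPKM and the length of an annotated transcript. That transcript may differ from the one the authors used, so that these intervals are approximate. All intervals cover counting error only, not the spread between cultures, and say nothing about the guides.

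The cells were checked against markers. Of 7 genes expected in 293T cells (VIM, KRT8, KRT18, NEFL, NEFM, LIN28B and HOXA9), 0 had FPKM under 1 in any library. Of 11 markers of leukocytes, endothelium, fibroblasts, liver and erythroid cells, 9 had FPKM under 1 in each library, and PTPRC, CD3E, COL1A2, DCN and HBB were listed at 0 in all of them. The 11 markers summed to FPKM 8.80 in mock, 6.40 with sgL1ASP #1 and 7.20 with sgL1ASP #3, and the most abundant was APOA1 with 5.39, 3.36 and 3.82. COL1A1, a fibroblast marker, was the other one above 1, with 2.55, 1.99 and 2.46.

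The promoters were searched for the letters by which serum response factor and CREB are known to act, and some of the matches are shown. RefSeq promoter windows of GRCh38.p14, from 250 bases before to 50 bases after an annotated start, were at hand for 8 of the 10 genes, with 11 windows in all. EGR3 and IER3 had no entry. Sequence outside the windows was not searched, so that a gene without a match here may carry the letters farther away. The CArG box, the core of the serum response element, was found in windows of EGR1 and EGR2, which is 2 of the 8 genes, while 1.29% of all 35116 windows hold one. The sequences below show these boxes in capitals, on the strand of the gene. The boxes of EGR1 begin 105 and 83 bases before the start, and that of EGR2 begins 71 bases before one of its 3 annotated starts.
EGR1, chr5:138465364-138465393, plus strand: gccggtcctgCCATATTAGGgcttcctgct
EGR1, chr5:138465386-138465415, plus strand: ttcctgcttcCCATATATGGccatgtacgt
EGR2, chr10:62816418-62816447, minus strand: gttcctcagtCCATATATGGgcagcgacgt

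The letters TGACG, the shorter form of the cAMP response element through which CREB acts, were found on either strand in windows of 7 of the 8 genes, all except ATF3, and in 24.6% of all windows. The full form TGACGTCA, which contains TGACG, was in the windows of 0 of the 8 genes and in 1.85% of all windows. FOS and FOSB are shown because both carry the letters at nearly the same place, 64 and 60 bases before the start, and TATAAA 33 and 30 bases before it.
FOS, chr14:75278752-75278781, plus strand: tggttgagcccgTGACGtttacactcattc
FOSB, chr19:45467924-45467953, plus strand: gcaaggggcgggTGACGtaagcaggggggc
FOS, chr14:75278783-75278812, plus strand: taaaacgcttgtTATAAAagcagtggctgc
FOSB, chr19:45467954-45467983, plus strand: gggtcccgggcaTATAAAtacaggctggcg

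TATAAA was found in windows of 4 of the 8 genes (FOS, FOSB, JUNB and ATF3) and in 11.5% of all windows. In JUNB it begins 31 bases before the start, near the place seen in FOS and FOSB. In ATF3 it begins 230 bases before one of its 2 annotated starts. The AP-1 letters TGANTCA and the EGR letters GCGTGGGCG were in the windows of 0 of the 8, against 7.71% and 0.795% of all windows. GGGCGG, bound by Sp1, was in windows of 6 of the 8 and in 45.0% of all windows, and in JUN it shares 1 base with TGACG. All letters were searched on both strands. EGR2 with 3 windows and ATF3 with 2 had more chances of a match than the others, and a match is a string of letters, not a measured binding site.

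The 10 genes spanned almost 3 orders of magnitude in FPKM, and their order was the same in all 3 libraries. By mean FPKM it was JUN (103), ATF3 (70.5), IER2 (29.6), JUNB (10.7), IER3 (7.0), FOS (1.71), FOSB (0.818), EGR1 (0.583), EGR3 (0.148) and EGR2 (0.121). The 3 values of neighbouring genes in this order did not overlap, except for EGR3 and EGR2. Within a library, the counting intervals of FOSB and EGR1 and those of EGR3 and EGR2 overlapped in all 3 libraries. Those of FOS and FOSB overlapped in 2 libraries, mock and sgL1ASP #1, and those of JUNB and IER3 and of EGR1 and EGR3 in 1, sgL1ASP #1. JUN stood at the 96.4 percentile of all listed genes in mock and ATF3 at the 94.3 percentile, but FOS at the 48.2 and EGR1 at the 41.6 percentile.

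JUN, the AP-1 subunit that can pair with itself or with FOS (chromosome 1, 59242517 to 59249720 in GRCh37, the build also called hg19), had FPKM 101 in mock, 105 with sgL1ASP #1 and 104 with sgL1ASP #3. Mock was lowest, but the libraries differed by a factor of 1.04 at most. With about 3225 reads in mock, the ratio to mock was 1.04 with sgL1ASP #1 (0.988 to 1.09) and 1.03 with sgL1ASP #3 (0.979 to 1.08). The RNA came from whole cultures, so that a change in the number of cells that transcribe a gene and a change in its RNA per cell cannot be told apart.

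JUNB, a JUN relative that often restrains JUN (chromosome 19, 12902300 to 12904129), had FPKM 10.1 in mock, 10.9 with sgL1ASP #1 and 11.2 with sgL1ASP #3. These values equal 170, 181 and 157 reads. Mock was lowest, and the ratio to mock was 1.08 with sgL1ASP #1 (0.870 to 1.34) and 1.11 with sgL1ASP #3 (0.889 to 1.39).

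FOS, the classic serum-induced subunit (chromosome 14, 75745529 to 75748933), had FPKM 1.56 in mock, 1.33 with sgL1ASP #1 and 2.23 with sgL1ASP #3. It was lowest with sgL1ASP #1 and highest with sgL1ASP #3, and the values equal only 32, 27 and 38 reads. The ratio was 0.855 for sgL1ASP #1 to mock (0.493 to 1.47), 1.43 for sgL1ASP #3 to mock (0.869 to 2.36) and 0.598 for sgL1ASP #1 to sgL1ASP #3 (0.351 to 1.01). All 3 intervals include 1, so that the difference between the guides was not detectable at this depth. FOSB, its close relative (chromosome 19, 45971253 to 45978437), had FPKM 0.743, 0.784 and 0.927 in mock, sgL1ASP #1 and sgL1ASP #3. About 28, 29 and 29 reads lay behind these values, so that the higher FPKM of sgL1ASP #3 came from nearly the same number of reads in a smaller library. The log2 change to mock was 0.07 with sgL1ASP #1, where the ratio has an interval from 0.602 to 1.83, and 0.29 with sgL1ASP #3, where it has one from 0.716 to 2.17.

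ATF3, a stress-induced factor that pairs with JUN proteins (chromosome 1, 212738676 to 212794119), had FPKM 68.7 in mock, 69.8 with sgL1ASP #1 and 73.0 with sgL1ASP #3. It was the second most abundant of the 10 genes in each library, and its ratio to mock was 1.02 with sgL1ASP #1 (0.939 to 1.10) and 1.06 with sgL1ASP #3 (0.979 to 1.15).

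By summed FPKM, RNA of the JUN family far exceeded RNA of the FOS family. The proteins that pair were not measured, and ATF3, which also pairs with JUN proteins, is not in these sums. JUN, JUNB and JUND together had FPKM 215 in mock, 225 with sgL1ASP #1 and 225 with sgL1ASP #3, and JUND, the JUN family member that is present without stimulation, made up 104, 110 and 110 of it. FOS, FOSB, FOSL1 and FOSL2 together had FPKM 4.57, 4.54 and 5.10, and FOSL2 was the highest on average with 1.94, 2.29 and 1.79. Summed FPKM of the JUN family was 47.2 times that of the FOS family in mock, 49.5 times in sgL1ASP #1 and 44.1 times in sgL1ASP #3. Mean FPKM was at least 1 for all 3 JUN family genes, with a median log2 change of 0.069 with sgL1ASP #1 and 0.070 with sgL1ASP #3, and for 2 of the 4 FOS family genes, FOS and FOSL2, with 0.010 and 0.19.

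The EGR genes had few reads. EGR1, the zinc finger factor induced by serum (chromosome 5, 137801168 to 137804992), had FPKM 0.552 in mock, 0.494 with sgL1ASP #1 and 0.704 with sgL1ASP #3. These are 17, 15 and 18 reads. Like FOS it was lowest with sgL1ASP #1 and highest with sgL1ASP #3, but the ratios to mock of 0.894 (0.416 to 1.90) and 1.27 (0.620 to 2.63) have wide intervals that include 1.

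EGR2, known for its part in myelination and hindbrain patterning (chromosome 10, 64571756 to 64578927), had FPKM 0.0367, 0.149 and 0.177 in mock, sgL1ASP #1 and sgL1ASP #3. The ratios to mock of 4.05 and 4.82 were the highest among the 10 genes, yet they rest on 1, 4 and 4 reads, and their intervals ran from 0.401 to 200 and from 0.476 to 237. If instead 2, 8 and 8 reads are taken, which the values also allow, the lower ends are 0.809 and 0.961.

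EGR3, a target and relative of EGR1, had FPKM 0.103, 0.156 and 0.186, most likely 4, 6 and 6 reads, with ratios to mock of 1.52 (0.360 to 7.32) and 1.80 (0.428 to 8.70). EGR4 was listed at 0 in mock and in sgL1ASP #1 and had FPKM 0.0529 in sgL1ASP #3, about 1 read. The corepressors of the family were more abundant than the EGR genes themselves. NAB1 had FPKM 14.3, 13.3 and 15.1, and NAB2 7.45, 8.43 and 8.97. These were the 2 of 6 genes in the EGR list with mean FPKM at least 1, and their median log2 change was 0.037 with sgL1ASP #1 and 0.17 with sgL1ASP #3.

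IER2, a small nuclear protein of the growth factor response (chromosome 19, 13261225 to 13265725), had FPKM 28.7 in mock, 28.5 with sgL1ASP #1 and 31.5 with sgL1ASP #3. The sgL1ASP #3 library was the highest, with a ratio to mock of 1.10 (0.974 to 1.24), and the ratio of sgL1ASP #1 to mock was 0.993 (0.883 to 1.12). IER3, a stress and survival gene (chromosome 6, 30710976 to 30712325), had FPKM 6.45, 7.66 and 6.88, equal to 70, 82 and 62 reads. It was highest with sgL1ASP #1, with a ratio to mock of 1.19 (0.852 to 1.66), and that of sgL1ASP #3 was 1.07 (0.745 to 1.52). Of the 10 genes, JUN and IER3 had their highest FPKM in sgL1ASP #1, and the other 8 in sgL1ASP #3.

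The 3 comparisons were set against all genes by the study's threshold of 1.5-fold, on the log2(FPKM + 0.1) scale, where changes of low genes come out smaller than they are. The study itself selected genes higher by that much in sgL1ASP #1 than in sgL1ASP #3 and in sgL1ASP #3 than in mock. Here each comparison was read alone and in both directions, so that the counts are not those of the study's selection. Both comparisons with mock share the same mock library, so they are not independent of each other. Mean FPKM was at least 1 for 12830 genes, among them 6 of the 10 members, FOS, JUN, JUNB, IER2, IER3 and ATF3. FOSB and the EGR genes did not reach it. Past 1.5-fold were 0 of the 6 members for sgL1ASP #1 to mock, where 3.55% of all 12830 genes were past it, and 0 of 6 for sgL1ASP #3 to mock, where 3.80% were. Between the guides 1 of 6 was past it, FOS with a log2 change of -0.70, against 3.77% of all genes. With 6 members, a single gene moves the share by more than the whole background.

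The median log2 change of the 6 members was 0.038 for sgL1ASP #1 to mock, where that of all 12830 genes was 0.0008. It was 0.11 for sgL1ASP #3 to mock, against 0.0015 for all genes, and -0.053 between the guides, against -0.0027. With no filter on low values, the medians over all 10 members were 0.061, 0.22 and -0.15 in the same order. Those of all 23284 genes were then 0.0. With each library brought to the same FPKM sum, 7 members had a mean of at least 1. Their median log2 change was then -0.040 for sgL1ASP #1 to mock against -0.092 for all genes, 0.017 for sgL1ASP #3 to mock against -0.12, and -0.038 between the guides against 0.023. Of the genes past 1.5-fold, 49.6% were higher with sgL1ASP #1 and 46.1% with sgL1ASP #3, and with the same FPKM sum 38.2% and 30.8% were. In deposited FPKM the quartiles of all genes were -0.096 and 0.092 for sgL1ASP #1 and -0.093 and 0.096 for sgL1ASP #3.

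After the values were seen, the number of members with higher FPKM in sgL1ASP #3 than in mock was counted. It was 10 of 10, and 6 of the 6 with mean FPKM at least 1, where 50.4% of all genes of that abundance were higher. The highest of the 3 values lay in sgL1ASP #3 for 8 of 10 members, and for 4 of the 6, where 34.0% of all genes had theirs. With sgL1ASP #1, 7 of 10 were higher than in mock, and 4 of the 6, where 50.3% of all genes were. The intervals of all 10 ratios include 1, and the count depends on the scaling. With each library brought to the same FPKM sum, which moves the median log2 change of all genes to -0.12 for sgL1ASP #3, 7 of 10 members were higher than in mock, and 3 of the 6, where 20.8% of all genes were, and JUN, IER3 and ATF3 turned lower. For sgL1ASP #1 to mock it was then 4 of 10, and 2 of the 6, where 25% of all genes were, and FOSB, JUN and ATF3 turned lower.

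FOS had the widest range over the libraries among the 6 members, 0.70 on the log2 scale, while the median range of all 12830 genes was 0.15. It is also the least abundant of the 6. Among the 2007 genes with mean FPKM from 1 to below 3, a bound chosen after seeing the data, the median range was 0.38, and 17.5% had a wider range than FOS. Among 12346 other genes that reached FPKM 1 in all 3 libraries, the 5 whose log2 changes with both guides came nearest to those of FOS were IGFBP7, LOC100144603, OR7E14P, PLEKHA8P1 and SCG5, at distances from 0.030 to 0.047. IGFBP7, which encodes a secreted insulin-like growth factor binding protein, had FPKM 1.38, 1.15 and 1.99 in mock, sgL1ASP #1 and sgL1ASP #3. With 3 libraries such likeness rests on 2 changes per gene and is a description only.

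The rest of the response was followed in 10 lists with 103 different genes, 93 of them beside the members. All 103 were listed, and 86 had mean FPKM at least 1. Higher by more than 1.5-fold were 0 of the 86 for sgL1ASP #1 to mock (1.76% of all genes) and 1 for sgL1ASP #3 to mock (1.75%), and between the guides 1 was higher (1.96%). Lower were 1 of the 86 for sgL1ASP #1 to mock (1.79%), 0 for sgL1ASP #3 to mock (2.05%) and 1 between the guides (1.82%), which was FOS. The median log2 change of the 86 genes was 0.024 with sgL1ASP #1 and 0.023 with sgL1ASP #3.

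The other genes past 1.5-fold had few reads. DUSP2, a phosphatase that switches off MAP kinases, had FPKM 1.93 in mock, 1.17 with sgL1ASP #1 and 1.32 with sgL1ASP #3, which are 30, 18 and 17 reads. Its ratio of sgL1ASP #1 to mock was 0.608 (0.319 to 1.13). ZFP36, which binds short-lived mRNA such as that of FOS and speeds its decay, had FPKM 1.67, 1.94 and 1.19, and its ratio between the guides was 1.63 (0.865 to 3.19), from 31 and 16 reads. KLF2, a zinc finger factor of the immediate early class, had FPKM 1.06, 1.2 and 1.75. Its ratio of sgL1ASP #3 to mock was 1.65. The values allow several read numbers, and the interval ran from 0.949 to 2.93 for 24 and 33 reads, from 1.03 to 2.70 for 32 and 44 reads, and from 1.08 to 2.55 for 40 and 55 reads.

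The AP-1 partners beside FOS and JUN were followed in a list of 10 ATF and MAF family genes, which can join AP-1 dimers. Of these, 8 had mean FPKM at least 1, led by ATF3, and 0 were past 1.5-fold in any of the 3 comparisons. Their median log2 change was -0.024 with sgL1ASP #1 and 0.029 with sgL1ASP #3. ATF7, a relative of the stress kinase target ATF2, had FPKM 11.1 in mock, 9.74 with sgL1ASP #1 and 8.04 with sgL1ASP #3, and its ratio of sgL1ASP #3 to mock was 0.725 (0.644 to 0.816).

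The genes that act upstream did not pass the threshold either. All 14 kinases of the MAP kinase pathways had mean FPKM at least 1, led by MAP2K2 (MEK2) with FPKM 87.7, 98.1 and 97.4, and 0 were past 1.5-fold in any of the 3 comparisons. The same held for all 11 upstream transcription factors and coactivators, among which ELK1 had FPKM 31.2, 31.7 and 31.7 and SRF 24.9, 26.2 and 27.3. CREM, of the CREB family, came nearest to the threshold, with FPKM 9.94 in mock, 8.42 with sgL1ASP #1 and 12.3 with sgL1ASP #3. Its ratio between the guides was 0.684 (0.573 to 0.818), and its ratio of sgL1ASP #3 to mock was 1.24 (1.05 to 1.47). For these 11 the median log2 change came to -0.068 and -0.067 with the guides, and for the kinases to 0.042 and 0.0019. With sgL1ASP #1 to mock, the approximate counting intervals of 8 of the 14 kinases included 1, while 5 lay higher and 1 lower. With sgL1ASP #3 to mock 9 included 1, while 3 lay higher and 2 lower. Among all listed genes with reads, 83 of 97 intervals included 1 for sgL1ASP #1 to mock and 80 of 98 for sgL1ASP #3 to mock. Those genes include the kinases and also genes with few reads, whose wide intervals include 1 more readily. The share over all genes was not counted, so these counts are not a result about the kinases or the factors. RPS6KA5 (MSK1), which phosphorylates CREB, had FPKM 3.97 in mock, 4.88 with sgL1ASP #1 and 3.59 with sgL1ASP #3, and its ratio between the guides of 1.36 was the farthest from 1 among the kinases. That ratio had an interval from 1.24 to 1.48. Its ratios to mock were 1.23 (1.13 to 1.33) with sgL1ASP #1 and 0.904 (0.825 to 0.990) with sgL1ASP #3. Whole reads were not searched for it, and these approximate intervals rest on reads estimated from an annotated transcript of 26829 bases. A shorter transcript would give fewer reads and wider intervals.

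Immediate early genes of other families were read in the same way, in lists that also hold IER2 and IER3. Among 16 transcription factors, IER2 and SRF included, 14 had mean FPKM at least 1, led by ID2, an inhibitor of helix-loop-helix factors, with FPKM 125, 117 and 121. Their median log2 change was 0.054 with sgL1ASP #1 and 0.074 with sgL1ASP #3, and KLF2 was the only one past 1.5-fold. MYC, the growth regulator, had FPKM 69.4, 71.3 and 68.0. Among 18 genes with other products, IER3 included, 16 had mean FPKM at least 1, led by PPP1R15A, which restarts translation after stress, with 62.6, 63.3 and 59.4, and 0 of them were past 1.5-fold in any comparison. Their median log2 change was 0.064 and 0.056 with the guides. DUSP1, a phosphatase of MAP kinases, led the 13 feedback inhibitors with 25.4, 26.5 and 29.1. Mean FPKM was at least 1 for 9 of them, with a median log2 change of 0.092 with sgL1ASP #1 and 0.015 with sgL1ASP #3.

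A list of 9 stress genes often measured with ATF3 was led by ATF4. This gene, the factor of the amino acid and unfolded protein responses that activates ATF3, had FPKM 920 in mock, 924 with sgL1ASP #1 and 950 with sgL1ASP #3, and its target DDIT3 had 140, 154 and 150. Of the 9 genes in this list, 8 had mean FPKM at least 1 and 0 of these were past 1.5-fold in any comparison, with a median log2 change of -0.0011 with sgL1ASP #1 and 0.023 with sgL1ASP #3. HSPA1A, whose near-identical copy HSPA1B makes its reads hard to assign, had FPKM 0.30, 0.0434 and 0.309 from 7, 1 and 6 reads, and its ratio of sgL1ASP #1 to mock of 0.145 (0.00321 to 1.13) has an interval that includes 1. HSPA1B had FPKM 48.4, 48.8 and 47.0. DNAJB1, a cochaperone of the heat shock response, had FPKM 59.9, 49.5 and 53.9, with ratios to mock of 0.826 (0.760 to 0.897) and 0.900 (0.827 to 0.979). CHAC1 had FPKM 9.15, 6.77 and 8.98, with ratios to mock of 0.740 (0.562 to 0.972) and 0.981 (0.752 to 1.28). Of the 8 intervals with sgL1ASP #1, 5 included 1, 1 lay higher and 2 lower. With sgL1ASP #3, 6 included 1, 1 lay higher and 1 lower. The share over all genes was not counted for these intervals, so they are a description only.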

How the data were processed

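RNA-seq of 293T cells with dCas9-VP64 and mock, sgL1ASP #1 or sgL1ASP #3 was used, 1 library per group, and 0 columns were left unmapped. The authors made stranded mRNA libraries and mapped the reads to hg19 with TopHat2 2.0.13, Bowtie2 2.2.3 and SAMtools 0.1.19 (versions from the submitters' processing notes), and they deposited FPKM per gene from Cuffdiff of Cufflinks 2.2.1. Their gene annotation and their scaling between libraries are not given in the sources used here.

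The members and the gene lists were chosen with earlier results of these data known. FPKM was used as deposited, and log2 changes took a pseudocount of 0.1. The text names all 10 members, from each list the most abundant gene and up to 3 genes past 1.5-fold per comparison with mean FPKM at least 1, and the 5 genes nearest to the member with the widest range. NAB2, EGR4, ATF7, CREM, RPS6KA5, MYC, SRF, DDIT3, CHAC1, DNAJB1, HSPA1A and HSPA1B were named after their values were seen. Gene places and transcript lengths come from GENCODE 44 lifted to GRCh37.

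What 1 read is worth in FPKM, relative to mock, was taken from 1067 genes under FPKM 0.3 and was 1.0130 in sgL1ASP #1 and 1.2033 in sgL1ASP #3. The depth is the peak over 149 genes with 1 transcript, after taking 200 bases from its length. For genes with up to 200 expected reads, the whole read numbers nearest to the expected one were taken (between 0.7 and 1.35 times it). This worked for 6 of the 10 members. JUN, IER2 and ATF3 had more than 200 expected reads and were not searched, and FOSB was searched but gave no whole numbers. For the other 4 (FOSB, JUN, IER2 and ATF3), and for ATF7, CREM, DNAJB1, DDIT3, the upstream kinases and many other listed genes, the reads are estimates from transcript length. Intervals of ratios are exact binomial intervals. The steps were tested on simulated data. Computations ran in Python 3.11.15 (SciPy 1.17.1, pandas 2.3.3, NumPy 2.4.6), and plots were drawn with matplotlib 3.10.9.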

Additional observations from a re-analysis of the deposited data

How the results depend on the processing

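No paired analysis was possible because each group has a single library, and no library can be left out. Depth limits FOS, FOSB and the EGR genes most: of the 10 members, 4 (JUN, JUNB, IER2 and ATF3) have counting intervals that lie within 1.5-fold in every comparison, and for the other 6 at least 1 interval reaches past it.

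The number of members past 1.5-fold was 0 for sgL1ASP #1 to mock, 0 for sgL1ASP #3 to mock and 1 between the guides. With no filter on low values it was 1 in each comparison with mock, which was EGR2, so 1 of 10 where 9.31% and 9.56% of all genes were past it. With a threshold lowered to an increase of 25% (or its inverse) it was 1 of 6 for sgL1ASP #3 to mock, where 10.6% of all genes were past it, and with a pseudocount of 1 or a 2-fold threshold it was 0 between the guides. Among all listed genes, the number past 1.5-fold was 1 for sgL1ASP #1 to mock, 1 for sgL1ASP #3 to mock and 2 between the guides. With a pseudocount of 1 or a 2-fold threshold it was 0 in each. With no filter it was 4, 6 and 6 of 103, where 9.31%, 9.56% and 9.77% of all genes were past it. With the lowered threshold it was 3, 9 and 8 of 86, where 10.5%, 10.6% and 10.6% were. With each library brought to the same FPKM sum it was 2 for sgL1ASP #3 to mock, 0 higher and 2 lower of 90, where 5.53% of all genes were past it. The other settings, which were no pseudocount, rescaling to the median ratio and FPKM at least 1 in every library, kept these numbers within 1.5 times. The same FPKM sum also turned the log2 changes to mock of JUN (-0.04), ATF3 (-0.07) and FOSB (-0.01) with sgL1ASP #1 below 0, and those of JUN (-0.08), ATF3 (-0.03) and IER3 (-0.03) with sgL1ASP #3. With no fragment length taken off, the estimated depth of mock was 9600000 reads, against 10500000. The counts of members higher or highest in sgL1ASP #3 were chosen after seeing the data, and with the same FPKM sum 7 of 10, and 3 of the 6 with mean FPKM at least 1, had their highest value there, against 14.7% of all genes of that abundance.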
